A study of Mus musculus with 847 samples.

Results

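The 10 genes described here encode neuropeptides by which the hypothalamus is best known: Agrp, Npy, Pomc, Cartpt, Hcrt, Pmch, Avp, Oxt, Trh and Ghrh. They were chosen by name, as 10 of the 21076 genes of a count table, and all 10 were present. They were followed in 55 hypothalamus libraries and then across 847 libraries of 15 brain regions. The libraries came from untreated C57BL/6JN mice, an inbred black mouse strain, and each was made from the homogenised tissue of 1 region of 1 mouse, so that replicates are separate animals. The hypothalamus libraries were from 5 females and 4 males of 3 months, 4 females and 5 males of 12 months, 5 females and 5 males of 15 months, 5 and 5 of 18 months, 5 females and 6 males of 21 months, 4 males of 26 months and 2 males of 28 months. No female was older than 21 months.

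A neuropeptide gene is translated into a larger precursor, which is cut and modified in secretory granules and released from the neuron as one or several peptides. Within the hypothalamus, most of these genes are strongest in small clusters of neurons, and some of them share a cluster or a nucleus. Agrp and Npy are made together in appetite-raising neurons of the arcuate nucleus at the floor of the hypothalamus. Pomc, whose precursor yields the melanocyte-stimulating hormones, and Cartpt are made in appetite-lowering arcuate neurons, with Cartpt in several other nuclei too. Hcrt (orexin, an arousal peptide) and Pmch (melanin-concentrating hormone) are made in separate neurons of the lateral hypothalamus. Avp (vasopressin, the antidiuretic hormone) and Oxt (oxytocin, the hormone of milk release and labour) are made in large neurons of the paraventricular and supraoptic nuclei that send axons to the posterior pituitary. Trh and Ghrh are releasing hormones for thyrotropin and growth hormone.

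The genes were placed with the GENCODE M21 annotation of GRCm38. Avp (chr2:130580620-130582554, minus strand) and Oxt (chr2:130576173-130577054, plus strand) are neighbours, with 3565 bases between their facing ends. Npy lies at chr6:49822710-49829507 (plus), Pomc at chr12:3954951-3960642 (plus), Cartpt at chr13:99898489-99901091 (minus), Hcrt at chr11:100761069-100762931 (minus), Trh at chr6:92242061-92244650 (minus) and Ghrh at chr2:157329497-157347506 (minus), none of them overlapping another gene. Pmch (chr10:88091072-88092375, plus) overlaps Parpbp on the opposite strand. Agrp has a gene model that runs from 105566698 to 105637393 on the minus strand of chromosome 8 and overlaps Ctcf, Ripor1 and other genes. Since the libraries were unstranded, reads of Pmch and Parpbp, or of Agrp and its overlapping genes, cannot be told apart by strand. Overlap was taken over whole gene spans, and overlap of exons was not examined.

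RefSeq entries for GRCm38.p6 gave a promoter for 9 of the 10 genes. The 150 bases before the annotated start are printed for the 6 genes that vary most or carry a call for age or sex below. Each runs 5′ to 3′ along the gene's strand, and capitals mark the last TATAAA or ATAAA, the core of a TATA box, a motif bound by the general transcription machinery near many start sites.
Npy, chr6:49822560-49822709, plus strand: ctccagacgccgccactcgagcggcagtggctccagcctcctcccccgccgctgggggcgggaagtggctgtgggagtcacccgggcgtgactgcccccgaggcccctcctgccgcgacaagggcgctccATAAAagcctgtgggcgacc
Pomc, chr12:3954795-3954944, plus strand: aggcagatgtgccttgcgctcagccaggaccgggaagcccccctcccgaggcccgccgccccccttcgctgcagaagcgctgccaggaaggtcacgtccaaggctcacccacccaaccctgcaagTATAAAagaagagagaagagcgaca
Hcrt, chr11:100762932-100763081, minus strand: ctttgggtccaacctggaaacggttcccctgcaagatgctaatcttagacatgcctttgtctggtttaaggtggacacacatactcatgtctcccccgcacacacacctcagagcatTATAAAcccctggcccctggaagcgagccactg
Pmch, chr10:88090922-88091071, plus strand: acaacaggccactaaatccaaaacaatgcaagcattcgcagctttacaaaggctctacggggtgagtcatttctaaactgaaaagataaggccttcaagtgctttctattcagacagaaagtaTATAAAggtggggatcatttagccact
Avp, chr2:130582589-130582738, minus strand: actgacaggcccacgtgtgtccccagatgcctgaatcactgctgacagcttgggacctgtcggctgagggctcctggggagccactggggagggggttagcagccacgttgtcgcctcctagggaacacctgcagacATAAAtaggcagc
Oxt, chr2:130576019-130576168, plus strand: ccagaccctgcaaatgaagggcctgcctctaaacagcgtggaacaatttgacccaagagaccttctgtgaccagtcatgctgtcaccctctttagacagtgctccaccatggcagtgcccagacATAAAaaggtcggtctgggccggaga
TATAAA, searched on both strands, was found in the windows of Pomc, Hcrt and Pmch and in one of the Ghrh windows, while 7.57% of 32851 RefSeq promoters of the same length hold it. The shorter ATAAA, which every TATAAA contains, was also found for Npy, Avp and Oxt and is held by 24.1% of those promoters. The cyclic AMP response element TGACGTCA was found in the Cartpt window, with 1.36% of all promoters holding it. The E-box CACGTG, the core bound by clock proteins among others, was found in the Avp window, against 4.30% of promoters. Avp and Oxt thus both have ATAAA without TATAAA, and Hcrt and Pmch both have TATAAA. A match of this kind is only a run of letters.

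Library totals over all regions ran from 481444 to 26756735 reads, and the shallowest hypothalamus library had 889661. Levels are given as CPM, the counts scaled to a common library total. All 55 hypothalamus libraries were closer in profile to hypothalamus than to any other region. Marker genes of neighbouring tissue set a few apart. The summed CPM of 6 thalamus markers was 1354 in the female of 18 months numbered 51 and 1104 in the male of 15 months numbered 30, against a median of 209.7. The sum of 9 anterior pituitary markers was 1390 in the female of 12 months numbered 4, against a median of 2.78, and Gh, Cga, Fshb, Pitx1 and Pou1f1 were at 0 in most libraries. Mouse numbers follow the groups. Those up to 15 held all mice of 12 and 26 months, 16 to 36 the males and 37 to 56 the females of 3, 15, 18 and 21 months, and the mice of 28 months had the highest numbers. The labels do not say whether the numbers stand for a date or cohort.

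In hypothalamus, the levels of the peptide genes lay far apart. To compare genes, the median CPM over 55 libraries was divided by the length of the gene's exons in kilobases. Pmch was then at 1650 CPM per kilobase, Avp at 879.7, Hcrt at 457.4, Oxt at 443.9, Cartpt at 149.1, Trh at 73.8, Pomc at 47.5, Npy at 30.6, Ghrh at 18.9 and Agrp at 2.22. The lateral and magnocellular peptides thus stood above the arcuate and releasing-hormone peptides, and the reads of Pmch and Parpbp cannot be told apart by strand.

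Most of these genes differed widely between mice of one age and sex. The SD of log2 CPM within a sex and age group was 3.12 for Avp, the largest among 11875 genes that averaged 5 CPM or more, and a doubling is 1 on this scale. Pmch (2.55) was second in that order, Oxt (2.40) was number 5, Hcrt (2.37) was number 7 and Pomc (2.23) was number 11. Agrp (1.73), Npy (1.36), Ghrh (1.02), Trh (0.87) and Cartpt (0.66) took ranks 27, 49, 90, 115 and 211. Among all 14726 genes tested, whose median was 0.19, the last 5 took ranks 38, 116, 346, 603 and 1669, and the first 5 had the same ranks. The order of the genes therefore runs from Avp, which spread from 0 to 1394 CPM, to Cartpt, which every library held at 51.5 CPM or more.

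**Figure D1:**
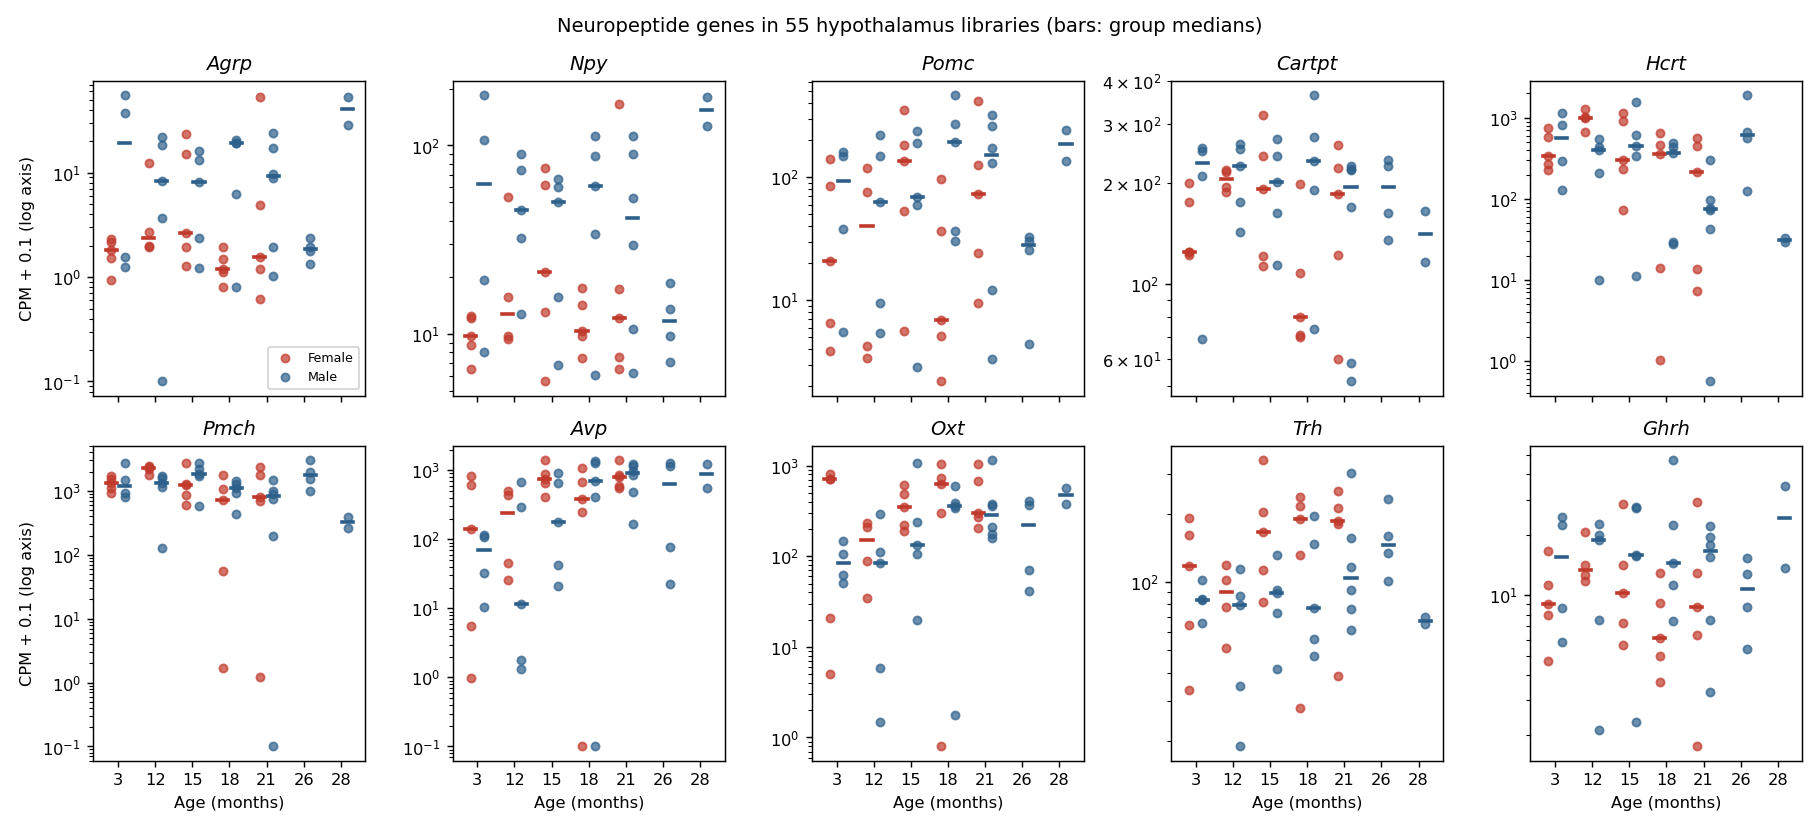
CPM plus 0.1 (log axis) of each gene in each of 55 hypothalamus libraries against age in months, females in red and males in blue, with a bar at the median of each sex and age. Points of one group often span more than 1 order of magnitude, while Cartpt stays between 51.5 and 363.7 CPM.

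Single animals show how far this went. The male of 21 months numbered 16 had 0.457 CPM of Hcrt and 0 of Pmch beside 1231 of Avp and 1143 of Oxt. The female of 18 months numbered 47 had 0.937 CPM of Hcrt and 1.56 of Pmch beside 378.4 of Avp and 731.6 of Oxt. In these animals the lateral hypothalamic peptides were close to 0 and the magnocellular ones were not. The male of 18 months numbered 27 had the opposite makeup, with 0 CPM of Avp and 1.69 of Oxt beside 369.2 of Hcrt and 1089 of Pmch. The female of 18 months numbered 51 had 0 CPM of Avp and 0.696 of Oxt beside 355.6 of Hcrt and 724.3 of Pmch. In whole tissue, fewer neurons of a kind and less RNA in each of them cannot be told apart. Which nuclei each dissected piece held was not tested either. The female numbered 51 had a thalamus marker sum of 1354 CPM, against a median of 209.7.

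Thalamus lies next to hypothalamus and offered a level for comparison. For Npy, 31 of 55 hypothalamus libraries were at or below the highest thalamus library (20.4 CPM). For Agrp it was 13 libraries (thalamus highest 1.39 CPM), for Oxt 10 (60.4), for Avp 8 (16.5), for Pomc 5 (3.80), for Pmch 3 (1.58) and for Hcrt 1 (0.659). No hypothalamus library was that low for Cartpt, Trh or Ghrh. The count for Oxt rests on single thalamus libraries that hold Oxt, given further on.

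The genes did not vary independently. Over the 55 libraries, 23 of the 45 pairs were correlated at an adjusted p under 0.05 (Pearson's r of log2 CPM, permutation test with 100000 resamples, Benjamini-Hochberg over the 45 pairs), 19 positively and 4 negatively. Of the 23, 20 had the same sign within mice 1 to 15 (n = 13) and within mice 16 to 56 (n = 40). The share of pairs of other genes correlated in these libraries was not counted. The number is therefore not shown to be particular to the peptide genes. Genes of the same neurons or nucleus made the closest pairs. Agrp and Npy had r = 0.94 and Spearman's rho = 0.88, Avp and Oxt had r = 0.92 and rho = 0.75, and Hcrt and Pmch had r = 0.85 and rho = 0.87. Each of these 6 coefficients had a permutation p of 1e-05, the smallest that 100000 resamples can give, with adjusted p of 3.75e-05 for r and 4.50e-05 for rho.

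**Figure D2:**
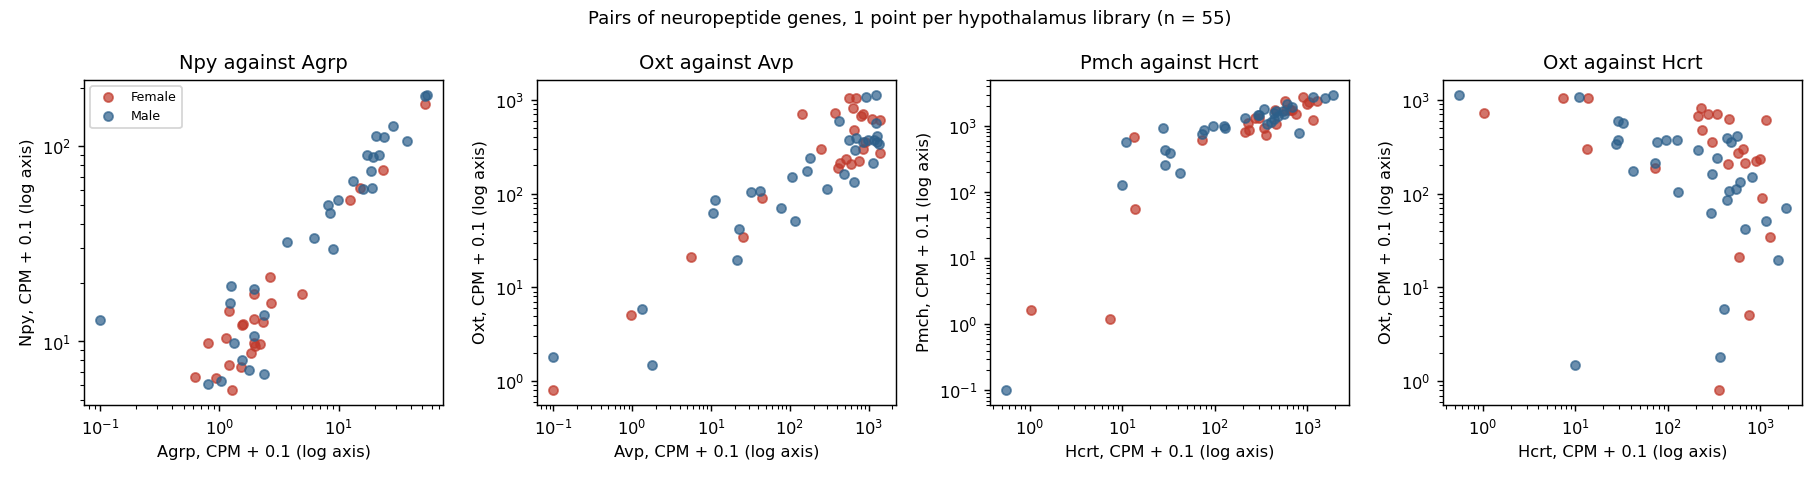
CPM plus 0.1 on both axes (log) for 4 pairs of genes, 1 point for each of 55 hypothalamus libraries, females in red and males in blue. Npy rises with Agrp (r = 0.94), Oxt with Avp (r = 0.92) and Pmch with Hcrt (r = 0.85), whereas Oxt and Hcrt have r = -0.33.

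None of the 3 pairs rested on a few libraries. Without the 2 libraries farthest from the median of the first gene, r was 0.93 for Agrp and Npy, 0.88 for Avp and Oxt and 0.77 for Hcrt and Pmch. Within mice 1 to 15 the 3 values were 0.84, 0.93 and 0.97, and within mice 16 to 56 they were 0.96, 0.91 and 0.85. With each gene taken relative to its sex and age group, they were 0.93, 0.92 and 0.82.

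Wider groups lay around these pairs. Pomc went with Agrp (r = 0.77, rho = 0.82) and Npy (r = 0.73, rho = 0.76), although its neurons act against theirs on appetite, and Ghrh, another arcuate peptide, went with Cartpt (r = 0.74, rho = 0.74), Pomc (r = 0.72, rho = 0.74), Agrp (r = 0.71, rho = 0.78) and Npy (r = 0.69, rho = 0.72). Cartpt went also with Pmch (r = 0.66, rho = 0.55). Trh followed Oxt (r = 0.73, rho = 0.63) and Avp (r = 0.63, rho = 0.43) and ran against Npy (r = -0.45, rho = -0.52). All these had adjusted p of 0.00265 or less by both coefficients in permutation tests (n = 55). Arcuate genes were thus correlated with each other, as were Avp, Oxt and Trh, but the groups were not closed. Pomc also went with Avp (r = 0.49, rho = 0.42) and Oxt (r = 0.43, rho = 0.29). Ghrh went with Pmch (r = 0.49, rho = 0.18) and Cartpt with Hcrt (r = 0.45, rho = 0.27). By r these had adjusted p from 0.000242 to 0.00193 (permutation tests). By rho only Pomc with Avp passed (adjusted p = 0.00374).

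The weaker negative relations were less steady. Hcrt and Oxt had r = -0.33 (permutation p = 0.014, adjusted p = 0.0277) and rho = -0.50 (adjusted p = 0.000418). Their r was -0.26 without the 2 farthest libraries, -0.44 within mice 16 to 56 and 0.48 within mice 1 to 15, so it did not hold in the smaller range. Trh with Cartpt (r = -0.38, adjusted p = 0.00885) and with Agrp (r = -0.31, adjusted p = 0.0423) likewise changed sign there, to 0.20 and 0.12 (permutation tests, n = 55 for the whole). For Agrp and Trh r was -0.25 without the 2 farthest libraries.

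The 3 genes most like each peptide gene, among 11875, put names to these groups. This likeness is Pearson's r over the 55 libraries, which share tissue and library type, and is a description. Agrp was closest to Npy, Col23a1 (0.87) and Tbx3 (0.87), a transcription factor of arcuate neurons, and Npy to Agrp, Tbx3 (0.90) and Crabp1 (0.88). Col23a1 is also a member of the tanycyte marker sum given below. Pomc was closest to Tmem35a, Cited1 and Klf5 (0.87, 0.87 and 0.86). Cartpt was closest to Nkx2-4, Nkx2-1 and Npvf (0.83, 0.81 and 0.81), of which Nkx2-1 is a transcription factor of the ventral hypothalamus. Pmch had an r of 0.99 with Parpbp, the gene that overlaps it, and Hcrt was closest to Parpbp (0.86), Pmch and Tacr3 (0.82), a neurokinin receptor.

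Avp was closest to Oxt, Cadps2 (0.87), which acts in granule release, and Otp (0.83), a transcription factor needed for the neurons that make these hormones. Oxt was closest to Avp, Six3os1 (0.91) and Cadps2 (0.90). Trh was closest to Penk (0.82), the enkephalin precursor, Mfge8 (0.82) and Rgs10 (0.76). Ghrh was closest to Megf11 (0.82), Pdyn (0.82), the dynorphin precursor, and Esyt3 (0.82). For Cartpt, Trh and Ghrh, a peptide precursor outside the 10 was thus among the 3 nearest genes.

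Markers of other cell types moved with several of the genes. The sum of 5 tanycyte markers, which label the ependymal cells lining the floor of the third ventricle beside the arcuate nucleus, ran from 7.25 to 230.6 CPM and had r = 0.89 (rho = 0.82) with Agrp, r = 0.89 (rho = 0.83) with Npy and r = 0.72 (rho = 0.78) with Pomc. The sum of 7 neuron markers ran from 3400 to 5947 CPM and had r = -0.77 (rho = -0.75) with Agrp, r = -0.73 (rho = -0.69) with Npy and r = -0.74 (rho = -0.77) with Pomc. The thalamus sum, from 161.5 to 1354 CPM, had r = -0.68 (rho = -0.56) with Pomc and r = -0.52 (rho = -0.32) with Avp. Each of these r had an adjusted p of 0.0012 or less over 140 relations of a peptide gene to a marker sum (permutation tests, n = 55). The ependyma sum had r = -0.59 (rho = -0.68) with Hcrt (permutation test, adjusted p = 7.37e-05). Libraries rich in Agrp, Npy and Pomc were thus also rich in tanycyte markers, and what part the reach of each dissection has in this was not tested.

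Age was tested as a straight line beside sex in all 55 libraries (edgeR's quasi-likelihood test with Benjamini-Hochberg adjustment over 14726 genes), and 1 of the 10 genes, Avp, passed an adjusted p of 0.05. In this comparison 3.88% of all genes were called higher with age and 3% lower. The median slope of the 10 genes was 0.014 log2 per month, with 7 above 0 and 3 below, and that of all genes was -8.89e-05. A share of 1 in 10 is near that background.

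Avp varied as follows. At 3 months it ran from 0.867 to 841.0 CPM with a median of 107.2 (9 libraries), and at 12 months from 1.23 to 676.2 with a median of 44.7 (9 libraries). At 15 months it ran from 21.2 to 1391 with a median of 649.8 (10 libraries), at 18 months from 0 to 1359 with a median of 548.6 (10 libraries), and at 21 months from 165.8 to 1394 with a median of 849.4 (11 libraries). The males of 26 months had 22.8, 78.0, 1172 and 1267 CPM, and those of 28 months 559.1 and 1223. Medians were low at 3 and 12 months and high from 15 months on, and all age groups overlapped. Libraries at or below the highest thalamus library numbered 3 of 9 at 3 months and 3 of 9 at 12 months, 2 of 10 at 18 months and 0 at the other ages.

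The fitted slope of Avp was 0.12 ± 0.038 log2 per month (SE, 95% interval 0.041 to 0.194, adjusted p = 0.0467 by edgeR), which over the 25 months from 3 to 28 comes to 2.95 (1.04 to 4.86). The slope was above 0 in each alternative fit and with each library left out, but the call stood at the threshold. It was lost in 28 of the 55 fits that left out 1 library, with adjusted p between 0.0216 and 0.0770 over all 55. It was lost too without the filter (adjusted p = 0.0555), with robust dispersion (0.0605) and with depth covariates (0.0619). The same held in males alone (slope 0.16, adjusted p = 0.126) and in mice 16 to 56 (0.12, adjusted p = 0.0960). With the mean log2 CPM of the neuron markers as a covariate it was lost (0.10, adjusted p = 0.0951), as with that of the thalamus markers (0.09, adjusted p = 0.106). The medians of the thalamus sum, from the youngest age to the oldest, were 223.2, 225.1, 210.6, 211.9, 183.9, 262.9 and 208.8 CPM, with no steady direction. Its means were 335.3, 275.6, 295.1, 340.3, 200.3, 298.6 and 208.8 CPM, raised by single high libraries at some ages. The median age slope of the 6 thalamus markers was -0.025 log2 per month, against -8.89e-05 for all genes, and 0 of them passed.

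The other 9 genes did not pass. Oxt, the partner of Avp, had a slope of 0.05 ± 0.030 (SE, adjusted p = 0.308), and Trh had 0.04 ± 0.015 (adjusted p = 0.130), both by edgeR. Trh medians, from the youngest age to the oldest, were 83.9, 79.1, 102.5, 138.9, 155.5, 146.1 and 67.5 CPM, the last being the lowest. The slopes of the arcuate genes were 0.012 for Agrp, 0.015 for Npy, 0.033 for Pomc, -0.010 for Cartpt and 0.001 for Ghrh, and those of the lateral genes were -0.032 for Hcrt and -0.025 for Pmch, with adjusted p from 0.641 to 0.997 by edgeR. The 95% intervals over 25 months were wide for the most variable genes, from -2.45 to 0.865 log2 for Hcrt and from -0.944 to 2.58 for Pomc, and narrower for Cartpt, from -0.859 to 0.338. An absence of change is therefore not shown for them.

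**Figure D3:**
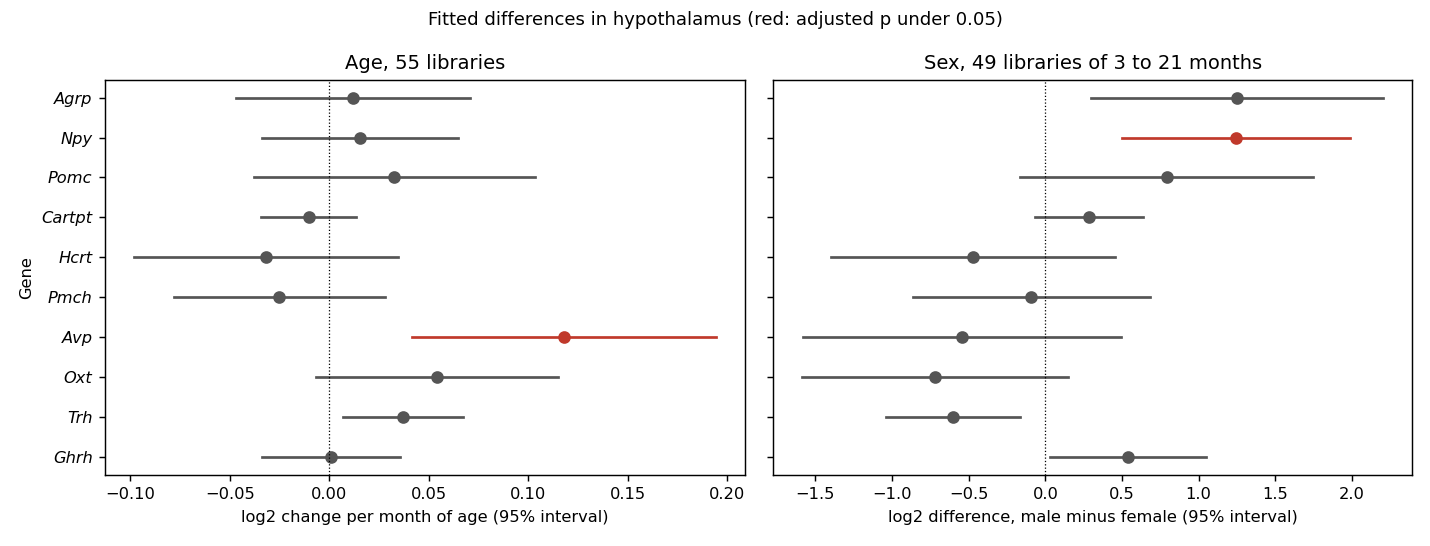
Fitted log2 change per month of age (left, 55 libraries) and log2 difference of males minus females (right, 49 libraries of 3 to 21 months) for each gene, with 95% intervals and genes with an adjusted p under 0.05 in red. Avp is the red gene for age at 0.12 and Npy the red gene for sex at 1.24.

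With age as a factor, none of the 10 genes passed in any of the 6 comparisons with 3 months, which share the same 9 young libraries (edgeR, adjusted over 14726 genes each). The share of all genes called was 0.0204% for the mice of 12 months, 0.306% for those of 15, 0.849% for 18, 4.49% for 21, 1.03% for 26 and 4.42% for 28. The log2 difference of Avp from 3 months, in order of age, was 0.33, 1.60, 1.83, 2.19, 2.06 and 2.51, with adjusted p of 0.129 or more. Hcrt had -1.70 at 21 months (adjusted p = 0.165) and -3.90 at 28 months (adjusted p = 0.159), and the second of these passed in DESeq2 (-3.89, adjusted p = 0.0465). Unadjusted, 7 of the 60 tests had a p under 0.05.

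The males of 26 and 28 months differed without overlap in Agrp and Npy, and also in Pomc, Hcrt, Pmch and Trh. The share of all genes that separate these libraries was not counted, and several of these genes vary together. The separation is therefore a description and is not shown to be particular to the peptide genes. The 4 males of 26 months had 1.23, 1.67, 1.84 and 2.27 CPM of Agrp, and both males of 28 months had 28.4 and 52.8. For Npy they had 7.06, 9.67, 13.5 and 18.5 CPM against 127.0 and 181.3. The ranges did not overlap, with the lowest library of 28 months 12.5 times the highest of 26 months for Agrp and 6.85 times for Npy. Pomc was likewise higher at 28 months (135.1 and 241.2 CPM, against 4.33 to 32.5). Hcrt (29.0 and 32.5, against 125.6 to 1898), Pmch (259.8 and 388.7, against 1000.1 to 3001) and Trh (65.4 and 69.7, against 100.6 to 231.2) were lower there. With 4 and 2 libraries, and mouse numbers that differ between these ages, age and number cannot be told apart. Against 3 months, Agrp at 26 months had a log2 difference of -3.06 (adjusted p = 0.208) and Npy -2.19 (adjusted p = 0.235), while at 28 months the values were 1.36 (adjusted p = 0.446) and 1.44 (adjusted p = 0.304), all by edgeR. Neither age thus differed from 3 months at the threshold. The tanycyte sum was 13.1 to 21.0 CPM at 26 months and 87.2 and 161.3 at 28 months, moving with both genes. Other marker sums separated these libraries too. The neuron sum was 4588 to 5075 CPM at 26 months and 3400 and 3822 at 28 months. The astrocyte sum was 1258 to 1574 against 1816 and 1887. Sums of oligodendrocyte, microglia, ependyma, pituitary, choroid plexus and meninges markers did not overlap either. Those of endothelium, thalamus, striatum, blood, and cortex and hippocampus markers did. The part of these sums in the difference was not tested.

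Sex was compared from 3 to 21 months, the ages both sexes have, with age as a factor (24 females, 25 males). Npy was the 1 gene of 10 that passed, and it was higher in males. Of the 14374 genes tested by edgeR, 3.01% were called higher and 1.93% lower in males. Npy ran from 5.52 to 165.0 CPM in females with a median of 12.1, and from 5.96 to 184.2 in males with a median of 49.9. Both sexes thus spanned the same range, but 19 of 24 female and 8 of 25 male libraries lay at or below the highest thalamus library of 20.4 CPM. The log2 difference, males minus females, was 1.24 ± 0.37 (SE, 95% interval 0.497 to 1.99, adjusted p = 0.0392).

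Agrp, made in the same neurons, had a difference of nearly the same size, 1.25 ± 0.47 (SE, adjusted p = 0.113 by edgeR), that did not pass. Its median was 1.84 CPM in females, with a range of 0.518 to 52.9, and 8.88 CPM in males, with a range of 0 to 55.0. DESeq2 called it (1.48, adjusted p = 0.0441), as did edgeR with depth covariates (2.09, adjusted p = 0.0187), which gave 1.77 for Npy (adjusted p = 0.0126). The female of 21 months numbered 40 was the animal on which these values turned most. Its 52.9 CPM of Agrp and 165.0 of Npy were the highest of any female, and without it the differences were 1.90 for Agrp (adjusted p = 0.00551), 1.70 for Npy (adjusted p = 0.00137) and -0.67 for Trh (adjusted p = 0.0393), so that 3 of the 10 genes passed in edgeR.

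The call for Npy was lost in 26 of the 49 fits that left out 1 library, with adjusted p from 0.00137 to 0.0661, and in mice 16 to 56 (1.23, adjusted p = 0.0875). Outside 12 months the sexes had separate ranges of mouse numbers, so there sex and number cannot be told apart. The mice of 12 months, whose numbers were mixed, had a difference of 1.27 for Npy with 4 females and 5 males (edgeR, adjusted p = 0.441). The tanycyte sum had a median of 19.1 CPM in females and 39.0 in males. The mean log2 CPM of the tanycyte markers was used as a covariate, chosen after seeing the data. With it, the difference in Npy was 0.68 (adjusted p = 0.0374) and that in Agrp 0.61 (adjusted p = 0.184). Both differences were thus smaller beside the tanycyte covariate, and the call for Npy was kept.

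The remaining genes did not pass for sex by edgeR. Pomc (0.79, adjusted p = 0.368), Ghrh (0.54, adjusted p = 0.220) and Cartpt (0.28, adjusted p = 0.386) had values above 0, as the other arcuate genes did. Trh (-0.60, adjusted p = 0.0929), Oxt (-0.72, adjusted p = 0.363), Avp (-0.54, adjusted p = 0.605), Hcrt (-0.47, adjusted p = 0.616) and Pmch (-0.09, adjusted p = 0.956) had values below 0. Trh ran from 27.8 to 342.6 CPM in females with a median of 146.3, and from 18.8 to 301.9 in males with a median of 83.9. The Trh ranges overlapped over nearly their whole length.

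No gene of the 10 passed for a difference in slope between the sexes (edgeR, 0.0626% of 14374 genes called). Agrp came nearest, with a male minus female slope of -0.195 ± 0.075 log2 per month (SE, unadjusted p = 0.0124, adjusted p = 0.342), followed by Npy, with -0.128 ± 0.059 (adjusted p = 0.445). Without the female of 21 months numbered 40 the difference in slope was -0.0714 for Agrp (adjusted p = 0.854) and -0.0443 for Npy (adjusted p = 0.895). Avp had 0.14 ± 0.079 (adjusted p = 0.563). At 3 months the 5 females had 0.828 to 2.23 CPM of Agrp and the 4 males 1.15, 1.45, 37.1 and 55.0. High values at 3 months were thus in 2 of the 4 males and no female.

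Other genes of peptide signalling, from lists chosen with earlier results known, gave few calls for age. Of 27 further peptide genes 23 were tested, of which Nms rose with age by 0.12 ± 0.032 log2 per month (adjusted p = 0.0160), and Npvf fell by 0.080 ± 0.021 (adjusted p = 0.0127) and Bdnf fell by 0.026 ± 0.006 (adjusted p = 0.00665), all by edgeR. Npvf encodes RF-amide peptides that act on the reproductive axis, and its median was 15.3 CPM at 3 months and 6.90 at 21 months. Nms, neuromedin S of the suprachiasmatic clock, had medians of 0.573 CPM at 3 months and 2.74 at 21 months. Of 20 peptide receptor genes 17 were tested and 0 passed, and of 15 genes of peptide processing and granules, such as the convertases Pcsk1 and Pcsk2, 0 passed. The median slopes of these 3 lists were 0.008, -0.001 and -0.0003 log2 per month.

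Among transcription factors that mark hypothalamic nuclei, none rose with age of the 18 tested. Foxb1, a factor of the mammillary area, fell by 0.071 ± 0.020 log2 per month (adjusted p = 0.0196) by edgeR. Its median was 7.25 CPM in mice of 3 months and 4.23 in those of 21, and the ranges overlapped. Factors of the nuclei that hold the 10 genes, such as Tbx3 and Otp, did not pass. Of 10 genes of the response to feeding signals, Stat3, which carries the leptin signal, rose by 0.014 ± 0.004 (adjusted p = 0.0179) and Irs1, an adaptor of the insulin receptor, fell by 0.019 ± 0.005 (adjusted p = 0.00971).

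Cell type markers moved with age beside these genes. Of 6 microglia markers 5 rose, the astrocyte marker Gfap rose by 0.072 ± 0.012 log2 per month (edgeR, adjusted p = 2.75e-05), 3 of 5 blood genes and 1 of 5 choroid plexus markers rose, and 2 of 7 neuron markers fell. The neuron sum had medians, from the youngest age to the oldest, of 4744, 4544, 4530, 4442, 4332, 4803 and 3611 CPM, so that the mice of 26 months were the highest. The microglia sum had r = 0.54 (rho = 0.57) with Avp (permutation test, adjusted p = 0.00014, n = 55), and the astrocyte sum r = 0.62 (rho = 0.68; permutation test, adjusted p = 7.37e-05). None of the 5 tanycyte, 8 tested pituitary, 6 thalamus, 6 oligodendrocyte, 4 ependyma, 5 striatum, 4 tested cortex and hippocampus, 4 endothelium and 4 meninges markers passed. Avp was thus higher in libraries with more microglia and astrocyte RNA, and the part of this in its slope was not tested.

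For sex, 1 of 23 further peptides, 2 of 17 receptors, 1 of 15 processing genes, 0 of 18 transcription factors and 0 of 10 feeding-response genes passed in edgeR, beside the 3.01% and 1.93% of all genes given above. The 4 are named after their values were seen. Npy1r (0.41, adjusted p = 0.0446), the main postsynaptic receptor of neuropeptide Y, and Mc3r (0.55, adjusted p = 0.0493), a receptor for the melanocortins made from Pomc, were higher in males. Nms (-1.45, adjusted p = 0.0293) and Vgf (-0.23, adjusted p = 0.0144), a granule protein, were lower in males. Cell type markers moved with sex too. Rbfox3, 1 of 7 neuron markers, was higher in males (0.14), while Gfap, 1 of 5 astrocyte markers (-0.78), C1qa and Csf1r, 2 of 6 microglia markers (-0.30 and -0.12), Ttr, 1 of 5 choroid plexus markers (-1.73), and Slc17a7, 1 of 4 cortex and hippocampus markers (-2.05), were lower. Their part in the difference in Npy was not tested. Of 7 tested pituitary markers Prl was lower in males (-5.53, adjusted p = 0.00025), with a highest library of 954.8 CPM in females and 11.6 in males. The highest was that of the female of 12 months numbered 4, whose pituitary sum was 1390 CPM. How far the difference in Prl rests on that library is not given here. In males the pituitary sum ran up to 95.8 CPM.

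Across the 15 regions, 8 of the 10 genes had their highest median CPM in hypothalamus. Hcrt had a median of 342.6 CPM there and of 0 in 13 of the other regions, with 0.095 in pons. Pmch had 1236 CPM in hypothalamus and at most 1.05 elsewhere, Avp 507.6 and at most 0.671, Oxt 238.3 and at most 0.0967, and Ghrh 12.6 and at most 0.417. For these 5, no library of another region reached the hypothalamus median. Pomc had 62.6 CPM in hypothalamus and 1.22 to 3.19 elsewhere, and Cartpt had 190.4 and 0 to 19.0, with subventricular zone next. Levels of neighbours in the order below hypothalamus overlapped in range.

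Agrp, Npy and Trh were different. Agrp had a median of 2.25 CPM in hypothalamus and of 0.543 to 1.26 in the other regions, where its highest library had 2.28. Npy, which is also made in inhibitory interneurons of cortex and striatum, was highest in motor cortex (200.6 CPM, from 171.5 to 237.3), then olfactory bulb (196.9) and visual cortex (135.8). Hypothalamus came at rank 12 of 15 with a median of 17.3 CPM, above medulla (7.35), thalamus (6.68) and pons, which had the lowest median. Trh had 103.3 CPM in olfactory bulb (73.3 to 126.6), 102.2 in hypothalamus (18.8 to 342.6) and 87.0 in entorhinal cortex (0.327 to 449.3), 3 levels that did not differ beyond their ranges. Medulla followed with 27.5 CPM of Trh.

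**Figure D4:**
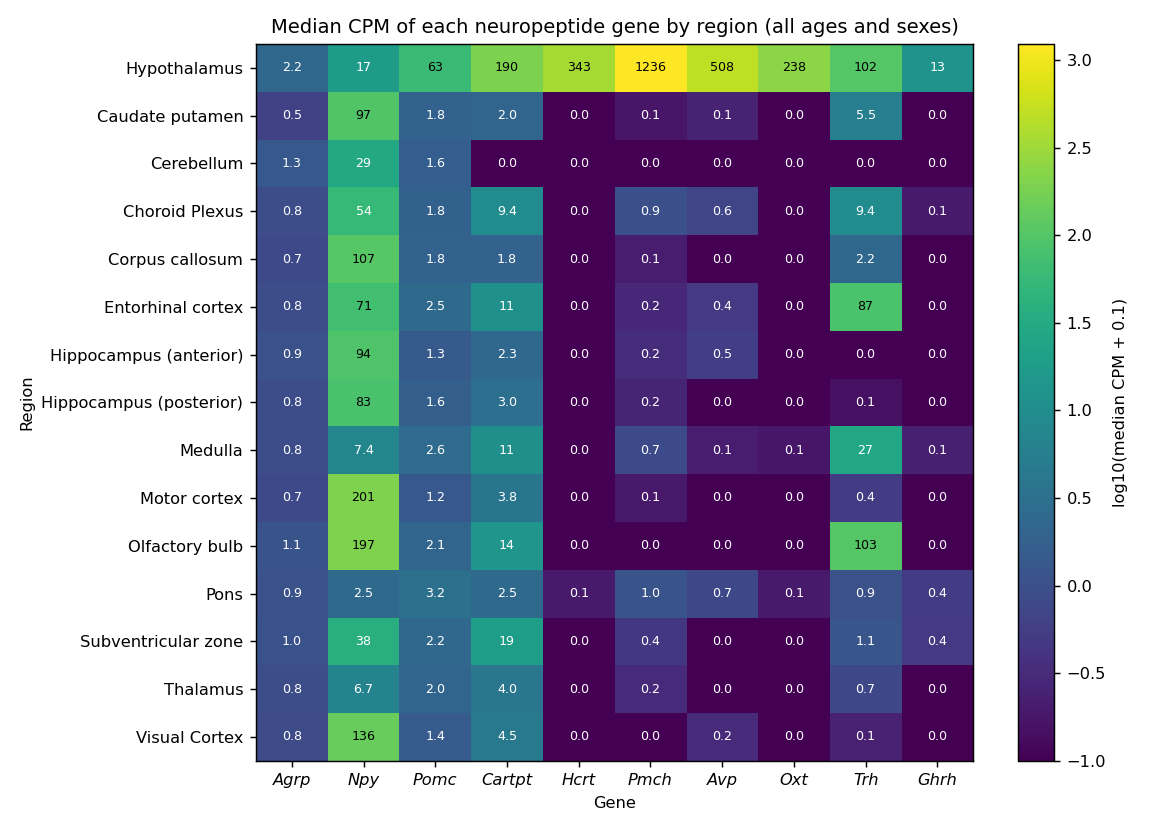
Median CPM of each gene (columns) in each region (rows) over all ages and both sexes, coloured on a log10 scale of median CPM plus 0.1, with hypothalamus on top. Hcrt, Pmch, Avp, Oxt and Ghrh are near 0 outside hypothalamus, Npy is highest in motor cortex and Trh is as high in olfactory bulb as in hypothalamus.

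The spread of Npy also differed between hypothalamus and cortex, as a description. In motor cortex the highest of 59 libraries had 237.3 CPM and the lowest 171.5. In hypothalamus the highest of 55 had 184.2 and the lowest 5.52. All mice with a hypothalamus library also had a motor cortex library.

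Some libraries of other regions held peptide genes far above their region's median. Pomc was at 1683 CPM in the entorhinal cortex of the female of 18 months numbered 39, where the pituitary sum was 193173 CPM, and at 930.5 in that of the female of 21 months numbered 40, where it was 159.7. Pomc was also between 55.3 and 590.5 CPM in 6 medulla libraries against a median of 2.63, with pituitary sums of 53.9 to 1248. Pomc is also made by the pituitary, as the corticotropin precursor. Cartpt was between 57.7 and 400.6 CPM in 7 pons libraries. Avp and Oxt were at 52.6 and 63.4 in the posterior hippocampus of the female of 15 months numbered 38, and Oxt was at 60.4 and 39.2 in the thalamus of mice 40 and 20, both of 21 months. These libraries are included in the levels above, where medians were used.

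Age was also tested in each of the other 14 regions by edgeR, with 77 tests of these genes in all, since only genes above the count filter of a region were tested and Ghrh passed it in none of them. There were 9 calls, in 6 regions. The share of all genes called was 20.2% in choroid plexus, 17% in cerebellum, 15.6% in olfactory bulb, 10.3% in medulla, 9.59% in visual cortex and 3.83% in thalamus. Where none of the 10 passed, it was 17.8% in corpus callosum, 16.6% in motor cortex, 13.4% in caudate putamen, 9.39% in anterior hippocampus, 7.77% in subventricular zone, 6.04% in posterior hippocampus, 4.69% in pons and 0.0964% in entorhinal cortex. A share of 9 in 77 lies within the range of these backgrounds.

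Of the calls on well-expressed genes, Cartpt fell in olfactory bulb by 0.024 ± 0.006 log2 per month (SE, adjusted p = 0.00314). Its median there was 16.7 CPM at 3 months, 14.7 at 12 and 15, 13.1 at 18, 12.6 at 21, 13.3 at 26 and 12.4 at 28 months. The lowest library of 3 months had 10.4 CPM and the highest of 28 months 13.1, so the ages overlapped. Npy fell in visual cortex by 0.012 ± 0.004 (adjusted p = 0.0393), from a median of 149.9 CPM at 3 months to 138.3 at 21 and 116.9 at 28 months, and in choroid plexus by 0.018 ± 0.006 (adjusted p = 0.0414). In males alone none of these 3 passed, with slopes of -0.012, -0.010 and -0.014. In motor cortex Npy stayed between medians of 185.4 and 205.7 CPM over the 7 ages, with a slope of -0.003 ± 0.002 (adjusted p = 0.406).

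The other 6 calls were at low levels. Agrp rose in olfactory bulb (0.036, adjusted p = 0.0176) and cerebellum (0.028, adjusted p = 0.0308), where it had medians of 1.07 and 1.26 CPM. Its reads cannot be told apart by strand from those of the genes it overlaps. Pomc fell in choroid plexus (-0.035, adjusted p = 0.00818, median 1.76 CPM) and Pmch in medulla (-0.038, adjusted p = 0.0463, median 0.735). Oxt fell in choroid plexus (-0.26, adjusted p = 1.3e-08) and rose in thalamus (0.29, adjusted p = 0.00848), both by edgeR, with medians of 0 CPM in each. The highest choroid plexus library had 10.8 CPM, at 3 months, and 43 of 59 thalamus libraries had no read, while the highest at 21 months had 60.4 CPM. DESeq2 did not call the thalamus slope (0.29, adjusted p = 0.104), and with males alone Oxt was not tested there. In males alone Oxt in choroid plexus (adjusted p = 0.000116) and Pmch in medulla (adjusted p = 0.0225) passed, but Pomc (-0.019, adjusted p = 0.349) and Agrp in olfactory bulb (0.036, adjusted p = 0.0903) and cerebellum (0.027, adjusted p = 0.128) did not. Without the filter Pmch in medulla missed the threshold (adjusted p = 0.0535).

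The slopes of hypothalamus and another region were compared directly in joint fits, which did not pair the libraries of one mouse. None of the 10 genes passed against motor cortex (0.894% of 15108 genes called) or against thalamus (0.0534% of 14979), by edgeR. For Npy, expressed in both regions, the slope in hypothalamus minus that in motor cortex was 0.016 ± 0.022 log2 per month (SE, 95% interval -0.027 to 0.060, adjusted p = 0.833), and for Cartpt it was 0.001 ± 0.019 (adjusted p = 1.0). Against thalamus it was 0.011 ± 0.032 for Npy (adjusted p = 0.997) and -0.024 ± 0.026 for Cartpt (adjusted p = 0.909). The other genes were near 0 in the second region, so their difference in slope says little. Of the 10 genes, Oxt alone had an unadjusted p under 0.05 against thalamus (edgeR over 114 libraries, -0.24, adjusted p = 0.599). The highest thalamus libraries for Oxt were those of 21 months given above.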

How the data were processed

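The deposited table holds whole-number read counts per gene and library, made by the authors. The submitters' processing notes name Trim Galore 0.3.7, STAR 2.5.3a, DESeq2 and GRCm38, without roles, and the counting program is not given in the sources used here. Per the labels' protocols, cDNA was made with Smart-Seq2 and tagmented with Nextera XT, unstranded. There are no molecular identifiers, so depth (481444 to 26756735 reads a library) understates error, and spread between mice was used.

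Counts were tested with edgeR 4.0.16 in R 4.3.3 (TMM factors, filterByExpr on region, sex and age, quasi-likelihood test, Benjamini-Hochberg over all genes of a contrast, threshold 0.05). Correlations used log2 CPM with a prior count of 2 and 100000 permutations, 2-sided, in Python 3.11.15. The reported fits of 2 regions did not pair libraries by mouse number and treated them as separate. Libraries with one number come from one animal, and the mouse as a block was an alternative. Fits were tested on simulated data. Further alternatives were RLE factors, no filter, DESeq2 1.42.0, robust dispersion, males alone, mice 16 to 56 alone, mice of 12 months alone, depth or marker covariates and single mice left out. The tanycyte and thalamus covariates, and leaving out mice 4, 30 and 51, were chosen after seeing the data. All 10 genes are named throughout. From other lists, up to 5 genes called for age were named by smallest adjusted p. The genes and lists were chosen with earlier results of these data known. One further gene of these lists is not reported here.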

Additional observations from a re-analysis of the deposited data

Results flagged for a closer look

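In 110 groups of 1 gene, 1 sex and 1 age with 4 to 6 hypothalamus libraries, 13 held a library far from the others on the log2 scale by Dixon's criterion, which chance gives in about 1 group in 20. All 13 were the lowest of their group. They fall on 8 mice, and several of these had both genes of a pair low.

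The male of 21 months numbered 16 had 0.457 CPM of Hcrt, against 42.2 to 302.5 in the 5 others, and 0 of Pmch, against 197.8 to 1476. The male of 12 months numbered 6 had 9.77 CPM of Hcrt (others 209.6 to 542.7) and 127.1 of Pmch (others 1133 to 1693). The female of 21 months numbered 48 had 1.11 CPM of Pmch, against 689.7 to 2357.

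The male of 18 months numbered 27 had 0 CPM of Avp (others 415.1 to 1359) and 1.69 of Oxt (others 337.4 to 599.0). The female of 18 months numbered 51, whose thalamus markers were the highest, had 0 CPM of Avp (others 245.8 to 1096), 0.696 of Oxt (others 302.8 to 1043) and 27.8 of Trh (others 131.3 to 236.5). The female of 21 months numbered 40, with the highest Agrp and Npy of any female, had 38.6 CPM of Trh, against 179.6 to 250.2. The male of 15 months numbered 30, second in thalamus markers, had 2.23 CPM of Ghrh (others 15.5 to 27.5), and the male of 26 months numbered 11 had 4.33 CPM of Pomc (others 25.6 to 32.5).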

How the results depend on the processing

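For age, the count of the 10 genes called was 1 in the reported fit and 0 with no filter, robust dispersion, males alone, mice 16 to 56 alone, depth covariates, the neuron covariate and the thalamus covariate, and it ran from 0 to 1 with single mice left out. Against 3 months, DESeq2 called 1 gene in place of 0, and only mice of 3, 26 and 28 months were left out in turn there, the others not being run. For sex, the count was 2 with DESeq2 and with depth covariates and 0 with robust dispersion, mice 16 to 56 alone and mice of 12 months alone, and from 0 to 3 with single mice left out. In other regions, males alone gave 2 calls in place of 9, of which 8 were tested, Oxt in thalamus having been filtered out. In mice 1 to 15 alone, 8 pairs of genes were correlated in place of 23, with 13 libraries. With the replicate block of mouse in the fits of 2 regions, the count was 0, as without it, and the block changed no call. Some age slopes that were never called changed sign. That of Agrp was -0.0220 in males alone, -0.00401 with depth covariates and -0.0583 with the neuron covariate, and ran from -0.0156 to 0.0433 with single mice left out, below 0 without mouse 40 or 58. That of Npy was -0.0104 in males alone and -0.0420 with the neuron covariate, and ran from -0.00584 to 0.0409, below 0 without mouse 40. That of Pomc was -0.0222 with the neuron covariate. That of Ghrh was -0.00352 with depth covariates, -0.0172 with the neuron, -0.00143 with the tanycyte and -0.00435 with the thalamus covariate, and ran from -0.00737 to 0.00580, below 0 without any one of 10 mice. Of the sex differences that were not called, Hcrt changed sign to 0.0146 with the tanycyte covariate, Pmch to 0.0998 in mice 16 to 56 alone and 0.0203 without mouse 56 (from -0.182 with single mice left out), and Ghrh to -0.202 in mice of 12 months. In males alone the difference in slope between regions changed sign for Npy against motor cortex (-0.00996) and thalamus (-0.0150) and for Cartpt against motor cortex (-0.0105). The cause of these changes was not tested. The depth of the libraries limits genes near 1 CPM, such as Agrp outside hypothalamus.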
